A study of Homo sapiens with 6 samples.

Results

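The mitochondrial carrier family SLC25 was examined in K562 cells, a human chronic myeloid leukemia (CML) line of erythroid character, in 3 libraries of the control group and 3 of the hyperoside group. Members were taken as every gene of the count table named SLC25A followed by a number, which gave 48 of 24960 genes. The cells carry no engineered change that the labels mention. The hyperoside group received 2 mM hyperoside, a flavonol glycoside, while neither a vehicle for the control group nor the time before RNA extraction is given in the sources used here. The labels number the libraries 1 to 3 in each group without saying whether they came from separate cultures, so the p-values below measure the spread between these libraries, which may be technical.

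Carriers of this family sit mostly in the inner mitochondrial membrane, which is closed to charged metabolites. Each is a small protein built of repeated pairs of membrane-spanning helices that opens in turn to the cytosol and to the matrix, usually exchanging one substrate for another. Through them pass ADP and ATP, phosphate, citrate, amino acids, acylcarnitines, cofactors, glutathione and iron, and in erythroid cells the iron and glycine that heme synthesis uses. A few members lie in the outer membrane or in peroxisomes.

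Between 35613283 and 36754725 counts fell on genes in each library, and the 48 carriers took 112799 to 127421 of them. A count of 0 allows up to 3 counts, a limit that covers counting error only. All 8 markers of the K562 line that were listed (among them the globins HBG1, HBG2, HBE1 and HBZ and the factors GATA1 and TAL1) were detected. Their summed level was 7651 to 9494 FPKM (fragments counted on a gene, scaled by its length and by the library total) in the control group and 5530 to 6689 in the hyperoside group, with 1 of 8 higher and 4 lower (against 22.1% and 23.2% of all tested genes, in the test described below), and the part of these values in the results below was not tested. The labels give the tissue as bone, but the osteoblast markers BGLAP and SP7 summed to 0 to 0.376 FPKM in control and 0.00798 to 0.0627 in hyperoside libraries. Markers of stroma summed to at most 1.11 FPKM with PDGFRA at 0 throughout. Megakaryocytic markers summed to 6.27 to 7.94 FPKM in control and 7.20 to 8.23 in hyperoside libraries with GP1BA at 0, and of its members ITGB3 was higher (log2 fold change 1.57) and ITGA2B lower (-0.36). T and B cell markers summed to 36.6 to 44.1 and 48.8 to 54.9 FPKM, nearly all of it CD3D, with MS4A1 at 0 to 1 counts.

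To see the start-site sequence of carriers described below, the 250 bases before the RefSeq start (GRCh38.p14, minus strand in each case) are shown for 4 members. SLC25A12 and SLC25A13 are sister genes of which SLC25A13 was called higher, SLC25A1 had the largest fall of the family, and SLC25A39 is the more abundant of 2 glutathione carrier paralogues. The windows lie at chr2:171894245-171894494, chr7:96322099-96322348, chr22:19178737-19178986 and chr17:44324824-44325073. RefSeq and GENCODE place some starts differently, and the SLC25A12 window lies inside the longer GENCODE span of that gene. Capitals mark CCAAT (the CCAAT box) and GGGCGG (the GC box) on either strand.
SLC25A12: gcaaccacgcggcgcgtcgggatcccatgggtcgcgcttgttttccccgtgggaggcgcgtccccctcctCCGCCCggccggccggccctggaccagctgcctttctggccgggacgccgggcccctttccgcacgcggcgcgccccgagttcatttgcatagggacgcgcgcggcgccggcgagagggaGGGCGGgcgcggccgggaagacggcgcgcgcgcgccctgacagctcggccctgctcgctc
SLC25A13: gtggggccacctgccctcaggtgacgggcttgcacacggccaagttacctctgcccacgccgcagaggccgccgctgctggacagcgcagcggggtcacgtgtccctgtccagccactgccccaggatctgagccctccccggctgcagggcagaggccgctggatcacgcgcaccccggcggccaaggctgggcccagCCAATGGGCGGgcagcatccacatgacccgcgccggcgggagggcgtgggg
SLC25A1: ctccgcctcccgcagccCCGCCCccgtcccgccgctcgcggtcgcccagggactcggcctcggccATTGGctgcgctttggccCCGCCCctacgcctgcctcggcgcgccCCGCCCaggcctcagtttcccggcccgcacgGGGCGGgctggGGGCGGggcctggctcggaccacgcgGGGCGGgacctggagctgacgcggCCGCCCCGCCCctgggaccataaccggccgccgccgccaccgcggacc
SLC25A39: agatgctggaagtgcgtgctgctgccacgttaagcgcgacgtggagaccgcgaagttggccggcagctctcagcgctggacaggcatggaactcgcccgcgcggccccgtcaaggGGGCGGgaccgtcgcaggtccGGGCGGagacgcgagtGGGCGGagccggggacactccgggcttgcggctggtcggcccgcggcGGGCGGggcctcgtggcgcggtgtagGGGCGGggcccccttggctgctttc

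The GC box occurred 8 times before SLC25A1, counting overlaps, 5 times before SLC25A39, 2 times before SLC25A12 and 1 time before SLC25A13. In the SLC25A13 window its 1 CCAAT box and its 1 GC box stand side by side. Promoter entries existed for 40 of the 48 members, of which 35 were tested. The GC box was present in 26 of these 35 (74.3%), against 42.6% of all 35116 promoter entries, coding and non-coding. CCAAT was present in 17 of 35 (48.6%), against 32% of all. By response, CCAAT stood before 6 of 9 members called lower, 1 of 4 called higher and 10 of 22 not called, and the GC box before 7 of 9, 2 of 4 and 17 of 22. In windows reaching 50 bases past the start, TGATGNAA, the core of the C/EBP-ATF element, was found in 1 of 35 members (2.86%, SLC25A11) and in 3.62% of all promoters. GCATGCGC, the core of the NRF1 element, was found in 0 of 35 members and in 3.05% of all. These are letters in a window and not evidence of binding.

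Transcript levels within the family were very uneven. Scaled by gene length, SLC25A5 led with a mean of 381 FPKM in the control group and 34.8% of the family's summed FPKM. SLC25A5 is the ADP/ATP carrier of dividing cells. SLC25A1, the citrate carrier, followed at 163 FPKM (14.9%), and the ranges of the control libraries did not overlap between the leading pair. SLC25A3, the phosphate carrier, stood at 84.7, SLC25A39 at 83.4 and SLC25A37, mitoferrin 1, at 79.9 FPKM. The control libraries of SLC25A39 overlapped those of both others, while the lowest value of SLC25A3, 81.6, was just above the highest of SLC25A37, 81.4. These 5 members held 72.4% of the family total. The next member, SLC25A17, stood at 24.7 FPKM, below every control value of SLC25A37, and 11 members were under 1 FPKM. The FPKM of SLC25A3 and SLC25A37 rest on gene lengths of 6343 and 8026 bases and that of SLC25A5 on 1307, so this order holds for the lengths the authors used.

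**Figure D1:**
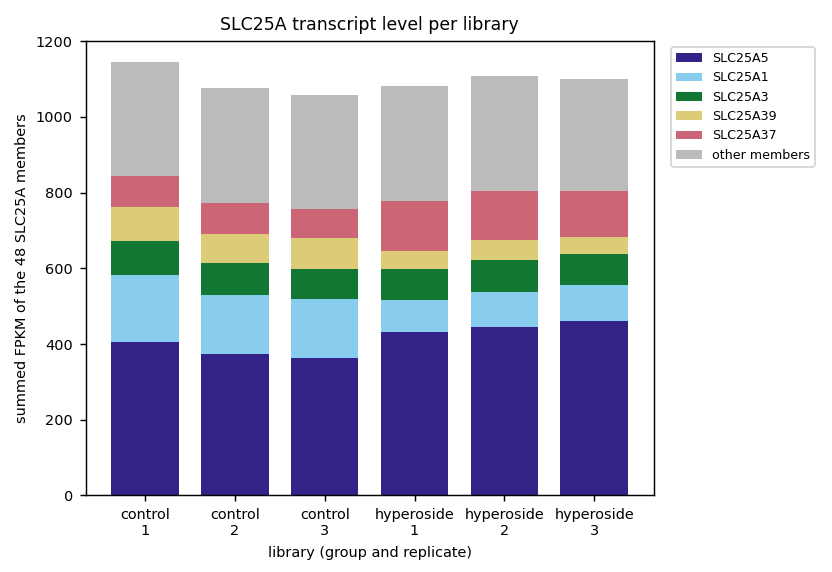
Stacked bars of summed FPKM over the 48 SLC25A members in each of the 6 libraries, with the 5 members of highest control level in colour and the rest in grey. The total is 1058 to 1144 in control and 1081 to 1108 in hyperoside libraries, while the SLC25A1 and SLC25A39 layers are thinner and the SLC25A37 layer thicker in each hyperoside library.

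The summed level of the family was 1093 ± 45.1 FPKM (SD, n = 3) in the control group and 1096 ± 13.9 (SD, n = 3) in the hyperoside group. Its make-up differed. SLC25A1 made up 14.6 to 15.4% of the sum in control libraries and 7.99 to 8.75% in hyperoside libraries. SLC25A37 made up 7.11 to 7.55% and 10.9 to 12.2%. For both, the groups lay apart.

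Of the 48 members, 42 had enough counts to be tested. In edgeR's quasi-likelihood test, with p-values adjusted over all 15095 tested genes, 5 members were higher in the hyperoside group (11.9%, against 22.1% of all tested genes called higher) and 11 were lower (26.2%, against 23.2% called lower), and 26 were not called. The count lower is thus near the share for all genes, and the count higher is below it. Without hyperoside replicate 3 the count lower was 7, with 5 higher as before. At the DEG threshold, a further requirement of a fold change above 2, 1 member was higher (2.38%, against 6.43% of all genes) and 0 were lower (against 3.76%). All libraries of the hyperoside group lay above all control libraries for 6 members (14.3%, against 27.1% of all genes) and below them for 15 (35.7%, against 27.3%). The median log2 fold change was -0.09 over the tested members and 0.00 over all tested genes. These are levels relative to all counted RNA in bulk cells, in which less RNA per cell and fewer cells of a kind cannot be told apart.

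**Figure D2:**
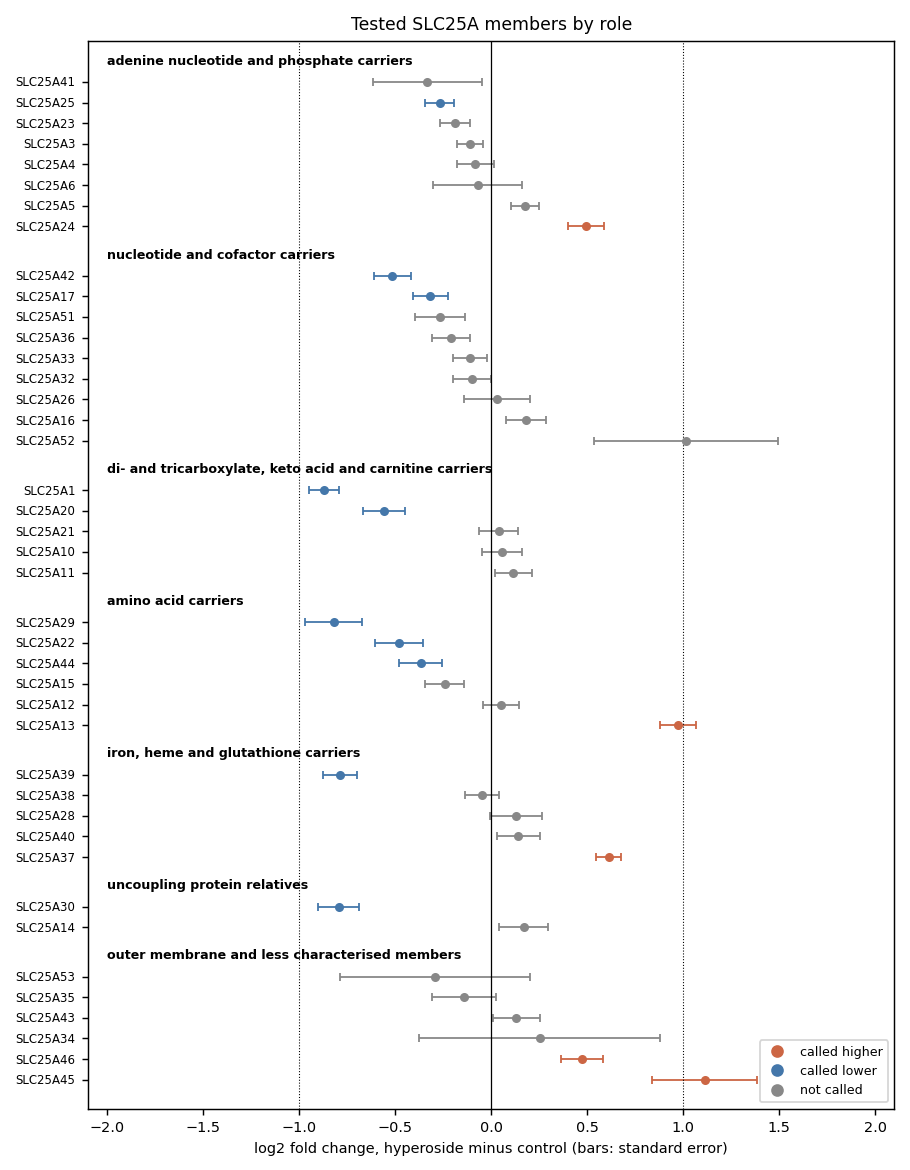
Log2 fold change (hyperoside minus control, edgeR) of the tested members, all but 1 shown, grouped by role, with bars of 1 standard error and dotted lines at a fold change of 2. Members called higher are orange, those called lower blue and the others grey, and higher and lower members stand side by side in the amino acid, iron and adenine nucleotide groups.

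The carriers of di- and tricarboxylates, keto acids and carnitine numbered 5, all tested, with 0 higher, 2 lower and 3 not called. SLC25A1 (chr22:19175575-19178830, minus strand, GRCh38) exports citrate, from which the cytosol makes acetyl-CoA for fatty acids and sterols. Its level was 176, 157 and 155 FPKM in the control libraries and 86.3, 94.0 and 96.3 in the hyperoside libraries. The highest hyperoside library was thus well below the lowest control library, and the fitted level fell to 54.6% of control (log2 fold change -0.87, SE 0.08, edgeR adjusted p = 1.30e-07). SLC25A1 has 5 annotated pseudogenes, which could share reads.

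SLC25A20, which has 1 annotated pseudogene, carries acylcarnitines into the matrix for fatty acid oxidation. Its level was 18.6, 18.3 and 15.3 FPKM in control and 13.1, 11.3 and 12.3 in hyperoside libraries, with no overlap (log2 fold change -0.56, SE 0.11, edgeR adjusted p = 3.92e-04). The dicarboxylate carrier SLC25A10, the 2-oxoglutarate/malate carrier SLC25A11 and the oxodicarboxylate carrier SLC25A21 had overlapping groups and log2 fold changes of 0.05, 0.12 and 0.04. With SLC25A1 as its largest member, the summed level of these 5 carriers was 217 ± 14.9 FPKM in control and 145 ± 6.09 in hyperoside libraries (SD, n = 3 each).

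Among the 8 amino acid carriers, 6 were tested, with 1 higher, 3 lower and 2 not called. SLC25A12 (aralar) and SLC25A13 (citrin) are paralogues that both exchange mitochondrial aspartate for cytosolic glutamate and serve the malate-aspartate shuttle. SLC25A13 (chr7:96120220-96322147, minus strand) had 10.01, 13.1 and 12.2 FPKM in control and 22.5, 25.6 and 23.4 in hyperoside libraries. Every hyperoside library exceeded every control library, and the fitted rise was 1.96-fold (95% interval 1.73 to 2.23, log2 fold change 0.97, SE 0.09, edgeR adjusted p = 2.32e-07), just under the DEG threshold. SLC25A12 (chr2:171784370-171999859, minus strand) had 6.55, 7.91 and 7.30 FPKM in control and 7.68, 7.87 and 7.76 in hyperoside libraries. Its groups overlapped (log2 fold change 0.05, SE 0.09, edgeR adjusted p = 0.687). Exons of SLC25A12 overlap those of METAP1D on the other strand.

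SLC25A29, a carrier of basic amino acids, had 4.85, 4.20 and 3.61 FPKM in control and 2.87, 1.94 and 2.64 in hyperoside libraries (log2 fold change -0.82, SE 0.15, edgeR adjusted p = 2.18e-04). The glutamate carrier SLC25A22 had 8.71, 7.54 and 6.70 FPKM in control and 5.22, 6.53 and 5.30 in hyperoside libraries (log2 fold change -0.48, SE 0.12, edgeR adjusted p = 0.00397). SLC25A44, a carrier of branched-chain amino acids, had 3.24, 2.85 and 3.24 FPKM in control and 2.24, 2.83 and 2.42 in hyperoside libraries (log2 fold change -0.37, SE 0.11, edgeR adjusted p = 0.0128). None of these 3 overlapped between groups, though for SLC25A44 the closest libraries, control replicate 2 and hyperoside replicate 2, nearly met. SLC25A44 was no longer called without hyperoside replicate 1 or hyperoside replicate 3. Nor was it called in limma-trend on log2(FPKM + 1) with all libraries (limma-trend adjusted p = 0.0869). Exons of SLC25A29 overlap AL157871.6 on the same strand and AL157871.1 on the other, and those of SLC25A22 overlap PANO1 on the other strand. The mitochondrial ornithine carrier SLC25A15 was not called (log2 fold change -0.24, edgeR adjusted p = 0.0576), and SLC25A2 and SLC25A18, further carriers of ornithine and glutamate, had 0 to 4 counts and were not tested.

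The iron, heme and glutathione carriers numbered 5, all tested, with 1 higher, 1 lower and 3 not called. SLC25A37, mitoferrin 1, brings iron into the mitochondria of erythroid cells. It lies at chr8:23528805-23575463 on the plus strand. Its level was 81.4, 81.3 and 76.9 FPKM in control and 131.5, 127 and 120.3 in hyperoside libraries. The groups were far apart relative to their spread (1.53-fold, 95% interval 1.39 to 1.67, log2 fold change 0.61, SE 0.07, edgeR adjusted p = 1.01e-06).

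SLC25A28, mitoferrin 2, is the more widely expressed iron carrier. Its groups overlapped at 1.91 to 2.58 FPKM in control and 2.41 to 2.55 in hyperoside libraries (log2 fold change 0.13, SE 0.14, edgeR adjusted p = 0.468). SLC25A38, which supplies glycine for the first step of heme synthesis, ranged from 14.7 to 16.5 and from 14.6 to 17.0 FPKM (log2 fold change -0.05, SE 0.09, edgeR adjusted p = 0.688). Of these 3 carriers of iron and glycine, 1 was called higher.

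SLC25A39 (chr17:44319625-44324870, minus strand) carries glutathione, the main thiol antioxidant, into the matrix. It had 91.2, 77.8 and 81.1 FPKM in control and 49.0, 55.0 and 46.1 in hyperoside libraries. With no overlap, the fitted level was 57.9% of control (log2 fold change -0.79, SE 0.09, edgeR adjusted p = 1.14e-06). Its paralogue SLC25A40 ran at 8.96, 13.2 and 13.3 FPKM in control and 14.4, 13.7 and 12.3 in hyperoside libraries, which overlapped (log2 fold change 0.14, SE 0.11, edgeR adjusted p = 0.332). Without control replicate 1, its lowest library, the log2 fold change of SLC25A40 was -0.0055, so its direction was not settled. SLC25A39 has 2 annotated pseudogenes, and exons of SLC25A40 overlap those of DBF4 on the other strand.

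**Figure D3:**
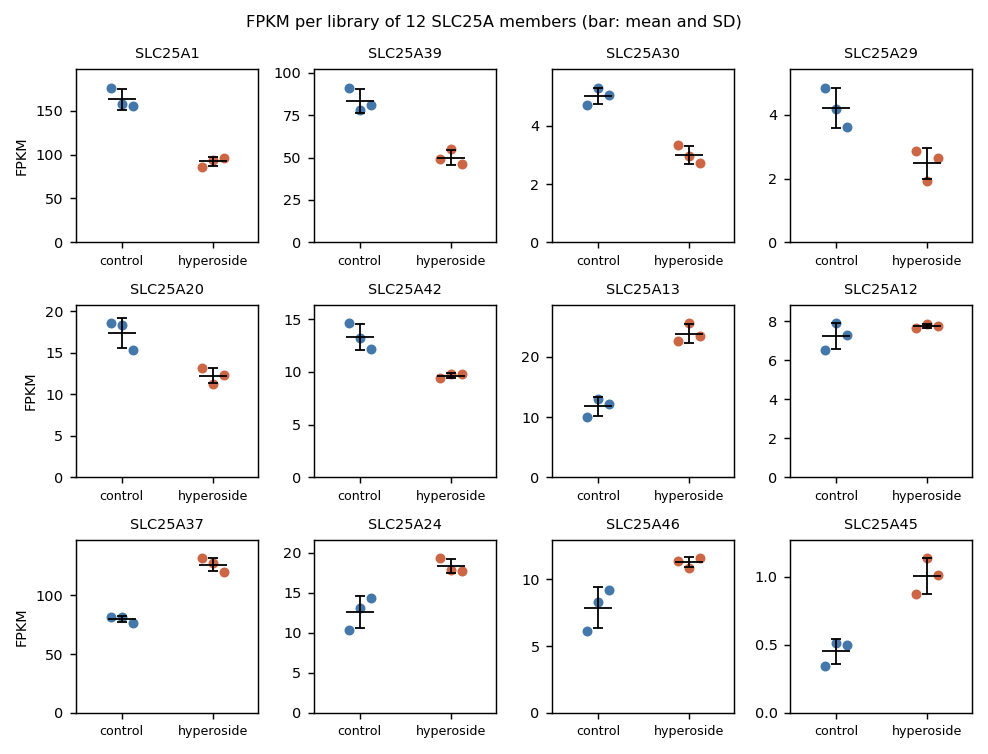
FPKM in each library (points), with mean and SD (bars, n = 3 per group), for the members of smallest adjusted p in each direction and for SLC25A12, each panel with its own axis from 0. The groups do not overlap in any panel except that of SLC25A12, where all 6 libraries lie between 6.55 and 7.91.

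The adenine nucleotide and phosphate carriers numbered 9, of which 8 were tested, with 1 higher, 1 lower and 6 not called. SLC25A5 had 406, 373 and 363 FPKM in control and 431, 445 and 459.7 in hyperoside libraries. On FPKM the groups did not overlap, but after TMM scaling, which corrects library totals for composition, they did. SLC25A5 missed the threshold (log2 fold change 0.17, SE 0.07, edgeR adjusted p = 0.0583), and it was called in 6 of the 14 alternative settings. It has 9 annotated pseudogenes, so reads of near-identical copies could move its level.

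SLC25A3, which supplies the phosphate for ATP synthesis, had 89.5, 83.1 and 81.6 FPKM in control and 80.5, 82.6 and 80.9 in hyperoside libraries (log2 fold change -0.11, SE 0.07, edgeR adjusted p = 0.207). The remaining ADP/ATP carriers were low. SLC25A4 had a control mean of 5.91 FPKM and a log2 fold change of -0.08. SLC25A6 had 2.36 FPKM and -0.07, but this gene is annotated on both X and Y and has 6 pseudogenes, so its level is uncertain. SLC25A31, the carrier of testis, had 0 to 1 counts and was not tested.

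A different picture held within the calcium-regulated ATP-Mg/phosphate carriers, which adjust the adenine nucleotide pool of the matrix. SLC25A24 had 10.4, 13.1 and 14.4 FPKM in control and 19.3, 17.9 and 17.7 in hyperoside libraries, with no overlap (1.41-fold, log2 fold change 0.49, SE 0.09, edgeR adjusted p = 3.79e-04). SLC25A25 had 14.1, 14.5 and 14.2 FPKM in control and 12.03, 12.9 and 11.8 in hyperoside libraries (log2 fold change -0.27, SE 0.08, edgeR adjusted p = 0.00895). SLC25A24 was thus higher and SLC25A25 lower in the hyperoside group. Exons of SLC25A24 overlap AL359258.2 and AL359258.3 on the other strand, and it has 2 annotated pseudogenes.

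SLC25A25 lost its call without hyperoside replicate 1 or hyperoside replicate 3. Its exons overlap the antisense RNA SLC25A25-AS1, which was higher in the hyperoside group, with 247, 212 and 252 counts in control and 512, 470 and 386 in hyperoside libraries (log2 fold change 0.90, SE 0.15, edgeR adjusted p = 7.85e-05). Whether strand was used in counting is not given in the sources used here, so reads of the pair might not have been told apart. SLC25A23 was not called (log2 fold change -0.19, edgeR adjusted p = 0.0552) and SLC25A41 ran at 1.47 FPKM in control with a log2 fold change of -0.33 (SE 0.28).

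The nucleotide and cofactor carriers numbered 10, all tested, with 0 higher, 3 lower and 7 not called. SLC25A42 brings coenzyme A into the matrix. Its level was 14.6, 13.2 and 12.2 FPKM in control and 9.43, 9.78 and 9.77 in hyperoside libraries, with no overlap (log2 fold change -0.52, SE 0.10, edgeR adjusted p = 3.02e-04). SLC25A17, the peroxisomal carrier of CoA, FAD and NAD, had 27.2, 24.1 and 22.7 FPKM in control and 20.5, 21.3 and 19.8 in hyperoside libraries (log2 fold change -0.32, SE 0.09, edgeR adjusted p = 0.00952). The groups did not overlap for either carrier.

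Without hyperoside replicate 3 SLC25A17 was no longer called. The summed level of the group was 95.04 to 95.3 FPKM in control and 80.1 to 85.5 in hyperoside libraries, which did not overlap. SLC25A51, the NAD carrier, had a log2 fold change of -0.27 and was not called (edgeR adjusted p = 0.106). Its near-copy SLC25A52 had 19, 25 and 11 counts in control and 28, 36 and 51 in hyperoside libraries and was not called either (log2 fold change 1.01, SE 0.48, edgeR adjusted p = 0.0939). Reads could be shared between these copies, so the split between them is uncertain. The pyrimidine nucleotide carriers SLC25A33 and SLC25A36, the folate and FAD carrier SLC25A32 and the S-adenosylmethionine carrier SLC25A26 had log2 fold changes between -0.21 and 0.03 and were not called. The CoA-related carrier SLC25A16 had 2.82, 2.72 and 3.29 FPKM in control and 3.53, 3.69 and 3.14 in hyperoside libraries, which overlapped (log2 fold change 0.18, SE 0.10, edgeR adjusted p = 0.165).

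Of the 3 relatives of the uncoupling proteins, 2 were tested. SLC25A30 had 4.74, 5.31 and 5.06 FPKM in control and 3.33, 2.96 and 2.72 in hyperoside libraries, with no overlap (57.7% of control, log2 fold change -0.79, SE 0.11, edgeR adjusted p = 9.92e-06). Its exons overlap TPT1-AS1 and SLC25A30-AS1 on the other strand, and the latter had 0 to 4 counts. SLC25A14 was not called (log2 fold change 0.17, SE 0.13, edgeR adjusted p = 0.309), and SLC25A27 had 0 to 10 counts and was not tested.

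The last group joins an outer membrane member and less characterised members. It held 8 genes, of which 6 were tested, with 2 higher, 0 lower and 4 not called. SLC25A46, an outer membrane protein linked to mitochondrial fission and lipid traffic, had 6.15, 8.33 and 9.16 FPKM in control and 11.4, 10.9 and 11.6 in hyperoside libraries (log2 fold change 0.47, SE 0.11, edgeR adjusted p = 0.00177). SLC25A45 (chr11:65375192-65383701, minus strand) was the DEG of the family, with 40, 58 and 56 counts in control and 99, 130 and 115 in hyperoside libraries. Neither member overlapped between groups.

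The level of SLC25A45 was low, at 0.451 ± 0.0937 FPKM in control and 1.008 ± 0.132 in hyperoside libraries (SD, n = 3 each, 2.16-fold, 95% interval 1.49 to 3.13, log2 fold change 1.11, SE 0.27, edgeR adjusted p = 0.00292). Without control replicate 1 its log2 fold change was 0.97, still called but no longer above a fold change of 2, so that 0 members were DEGs. Its exons overlap AP000944.1 on the other strand. SLC25A34, SLC25A35, SLC25A43 and SLC25A53 had log2 fold changes between -0.29 and 0.25 and were not called. SLC25A47 had 0 to 1 counts and SLC25A48 had 0 to 18, and neither was tested.

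Summed by role on FPKM, 3 further groups lay higher in every hyperoside library than in every control library. The adenine nucleotide and phosphate carriers summed to 504 to 553.5 FPKM in control and 571.5 to 599 in hyperoside libraries, most of it SLC25A5. This separation is not claimed after TMM scaling, where the groups overlapped for SLC25A5 and SLC25A3 was lower in every hyperoside library. It also depends on gene length, by which FPKM weights the members of a sum. The amino acid carriers summed to 40.2 to 43.2 and 46.6 to 51.9 FPKM. Of these, SLC25A13 alone had a mean of 11.8 FPKM in control and 23.8 in hyperoside libraries. In the same group 3 of the 6 tested members were called lower, so the sum does not stand for its members. The outer membrane and less characterised members summed to 12.2 to 16.6 and 18.4 to 19.7 FPKM, of which SLC25A46 had means of 7.88 and 11.3. The uncoupling protein relatives lay lower, at 7.72 to 8.60 and 5.84 to 7.01 FPKM, and the iron, heme and glutathione carriers overlapped, at 188 to 201 and 198 to 213 FPKM.

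Since several members share a substrate with a paralogue, the balance within pairs was measured as the log2 ratio of FPKM in each library. Of 10 listed pairs, 8 had both members tested. With 3 libraries per group the two-sided exact permutation test cannot go below p = 0.1, so no pair could pass the threshold, and the values are given as a description with that test. The groups did not overlap in 6 of the 8 pairs, each with an exact permutation p of 0.1 (0.133 after Benjamini-Hochberg adjustment over the 8 pairs). SLC25A24 enters 2 of these 6. Of all tested genes taken singly, 27.1% lay apart above and 27.3% below, and no such share was computed for ratios. A ratio shows unequal change and does not tell which member moved.

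For SLC25A12 over SLC25A13 the log2 ratio was -0.61, -0.72 and -0.74 in control and -1.55, -1.70 and -1.59 in hyperoside libraries, a difference of -0.92. In linear terms aralar stood at 0.599 to 0.654 of citrin in control and at 0.308 to 0.341 in hyperoside libraries. The glutathione pair SLC25A39 over SLC25A40 differed by a similar amount, -0.95, with ratios of 5.90 to 10.2 in control and 3.41 to 4.02 in hyperoside libraries. In the mitoferrin pair, SLC25A28 over SLC25A37, the difference was -0.47 on the log2 scale.

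Of the calcium-regulated carriers, SLC25A24 stood at 0.736 to 1.009 of SLC25A25 in control and at 1.39 to 1.60 in hyperoside libraries, a log2 difference of 0.77. Their order thus turned between the groups in all libraries but control replicate 3, where the ratio was already 1.009. SLC25A23 over SLC25A24 differed by -0.69 and SLC25A51 over SLC25A52 by -1.32, the latter resting on the low counts of SLC25A52. SLC25A5 over SLC25A6 differed by 0.23 (exact permutation p = 0.3) and SLC25A33 over SLC25A36 by 0.09 (exact permutation p = 0.7), and both overlapped.

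**Figure D4:**
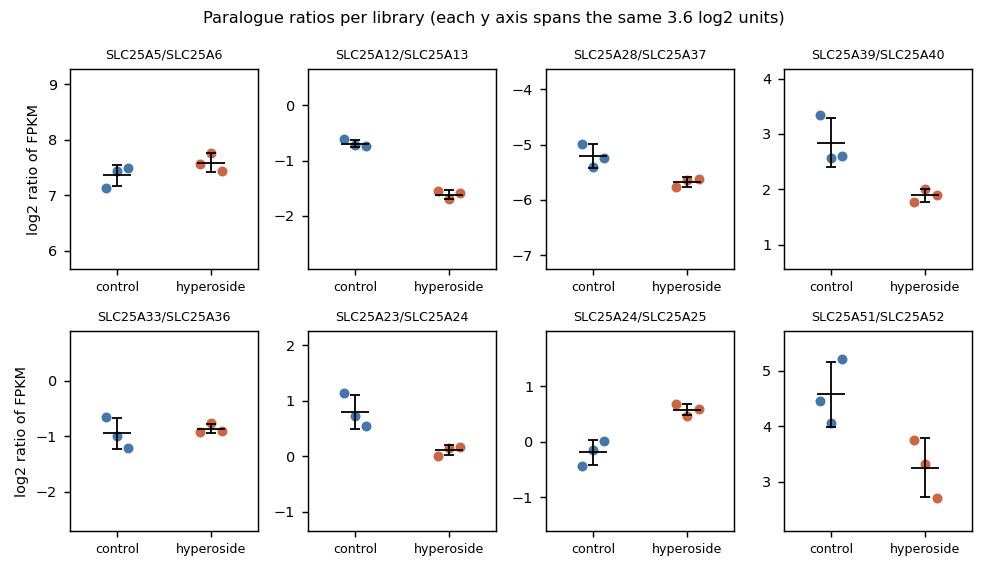
Log2 ratio of FPKM between paralogues in each library (points), with mean and SD (bars, n = 3 per group), on axes of equal span. The groups lie apart in 6 of 8 panels and overlap for SLC25A5/SLC25A6 and SLC25A33/SLC25A36, and SLC25A12/SLC25A13 moves from about -0.69 to -1.61 with little spread.

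The surroundings of the family were described by 3 further lists, to be read against the same 22.1% and 23.2% of all tested genes. Genes of the family under other names (UCP2, UCP3, MTCH1 and MTCH2) gave 0 of 4 higher and 1 of 4 lower, namely MTCH1, an outer membrane member (log2 fold change -0.37, SE 0.07, edgeR adjusted p = 2.00e-04). Other transporters of the mitochondrial membranes gave 2 of 15 higher and 6 of 15 lower, around a median of -0.20 on the log2 scale. Those lower included the serine carrier SFXN1 (-0.57, SE 0.07), MPC2 of the pyruvate carrier (-0.54, SE 0.07), the porin VDAC1 (-0.26) and the ABC transporter ABCB10 (-0.27), and those higher were SFXN2 (0.89, SE 0.16) and SFXN3 (0.56). For ABCB10 the groups overlapped.

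Proteins of the SLC25 family reach the inner membrane through the TOM complex, small TIM chaperones and the TIM22 translocase. Of 13 genes of this route, 4 were higher and 1 was lower, and the median over the 13 was 0.15 on the log2 scale. The higher genes were TIMM8B (0.38), the import pore TOMM40 (0.36), TIMM29 (0.34) and the translocase channel TIMM22 (0.33), and the lower gene was the chaperone TIMM10B (-0.58, SE 0.11, edgeR adjusted p = 2.47e-04). For TOMM40 the groups overlapped.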

How the data were processed

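RNA of K562 cells was sequenced in 6 libraries, and groups and replicate numbers came from the labels. The authors deposited raw counts per gene, and FPKM values scaled by gene length and library total. The submitters' processing notes name fastp, HISAT2, HTSeq and the build hg38. Versions, annotation and strand setting are not given in the sources used here. The authors' annotation columns were not used, and protein sequences were not analysed here.

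Counts were tested in R 4.3.3 with edgeR 4.0.16 (filterByExpr with a minimum count of 10 and total of 15, TMM, quasi-likelihood test with condition as the only term, Benjamini-Hochberg adjustment over 15095 genes). The call threshold was an adjusted p of 0.05, and DEGs also needed a fold change above 2. The standard error is the size of the log2 fold change over the square root of F, and 95% intervals are 1.96 standard errors. Levels are FPKM, and groups were compared for overlap on TMM-scaled counts (CPM). The edgeR test was run on simulated counts, with fold changes of 2 or more placed on genes that were not of low count. Smaller changes and changes in genes of low count were not covered. Replicates differed by more than counting error (chi-square per degree of freedom 6.56 to 24.9), so none was counted as a copy of another. Control replicate 1 stood furthest apart, at 21.8 and 24.9 against control replicates 2 and 3. Those 2 differed by 6.56 from each other, and hyperoside replicates by 7.59 to 14.

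Members were ordered by role, and some called genes, which stay in the counts, are not reported here. Full statistics were given for DEGs, for the 10 members of smallest adjusted p in each direction, for the 5 of highest control FPKM and for SLC25A28, SLC25A37, SLC25A38, SLC25A39 and SLC25A40, and for up to 3 genes of each further list, beyond which genes were named after their values were seen. The members, lists, pairs and tests were chosen with earlier results of these data known. Positions and overlaps came from GENCODE 29 on GRCh38 and promoters from RefSeq on GRCh38.p14, with motifs sought on both strands. CCAAT and GGGCGG were chosen after seeing the data. The 14 alternatives (with DESeq2 1.42.0 and limma 3.58.1 among the tools) covered scaling, filter, test, log2(FPKM + 1), a replicate block and leaving out each library. Other software was Python 3.11.15 (numpy 2.4.6, pandas 2.3.3, matplotlib 3.10.9).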

Additional observations from a re-analysis of the deposited data

How the results depend on the processing

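Of the 16 members called, 12 kept their direction and stayed past the adjusted p threshold in all 14 alternatives. SLC25A17, SLC25A25 and SLC25A44 lost the call in 1 to 3 of them. Each loss came with a hyperoside library left out, except that SLC25A44 also lost it in limma-trend with all 6 libraries (limma-trend adjusted p = 0.0869). Fits with fewer libraries have less power by construction. Yet without control replicate 1 more genes were called over all genes (3549 higher and 3618 lower, against 3333 and 3508 in the main fit). SLC25A5 was called higher with upper quartile factors, with no filter on low counts, with a minimum of 50 counts, with limma-voom, with limma-trend on log2(FPKM + 1) and without control replicate 1. SLC25A52 was called only in limma-trend among its 13 alternatives. Without control replicate 1 the log2 fold change was 0.34 for SLC25A46, 0.39 for SLC25A24 and -0.35 for SLC25A22, each smaller in size than with all libraries. For SLC25A37 (0.65) and SLC25A30 (-0.81) it was larger in size. The log2 difference of SLC25A39 over SLC25A40 was then -0.69. The number of members called lower was 7 without hyperoside replicate 3, 8 without hyperoside replicate 1 and 11 to 12 with each other library left out, and limma-trend gave 7 higher and 9 lower. The number of DEGs higher was 2 with upper quartile factors (SLC25A13 being the second), 0 with limma-trend, and 0 to 2 with 1 library left out, being 0 without control replicate 1 and 2 without control replicate 2 or hyperoside replicate 1. The median log2 fold change of the members was -0.052 with upper quartile factors, -0.085 with no filter, -0.082 with a minimum of 50 counts, -0.023 with limma-trend and -0.12 to -0.057 with 1 library left out. Added up as CPM after TMM scaling in place of FPKM, the family differed by 0.059 on the log2 scale. The direction of SLC25A38 and SLC25A40, neither of them called, was not settled. SLC25A38 had 0.00075 in limma-trend and -0.12 to 0.0093 with 1 library left out, and SLC25A40 had -0.0055 to 0.22. With the replicate number as a block, 5 members were higher and 11 lower and all 16 calls were as before, while same-numbered libraries did not deviate together (correlations -0.081, -0.0327 and -0.0342), so the numbers were not taken to pair the libraries. Low counts limit SLC25A45, SLC25A52 and the 6 untested members. Apart from what the construction of an alternative shows, the cause of these shifts was not tested.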
